A study of Mus musculus with 18 samples.

Results

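Transcripts of 36 lysosomal genes were followed in mice that lack Ppt1 and in wild-type mice. Ppt1 encodes palmitoyl-protein thioesterase 1, a soluble lysosomal enzyme that takes palmitate off degraded proteins, and its loss in people causes a neuronal ceroid lipofuscinosis, a storage disease of the brain. The genes were chosen by name: soluble enzymes that break down glycosaminoglycans, sphingolipids, glycoproteins, glycogen and other lipids, their activator proteins, the protease legumain, acid phosphatases, and proteins of the lysosomal membrane, with the cathepsins left out. The rule uses gene names and no measured value, but it was set with earlier results of these data known. Of the 36 genes, 35 had at least 1 probe set on the array with a single gene symbol, 74 probe sets in all of the 45101 in the table. Cd63 had none so named here. A total of 34 genes passed the filter on dim signals with 63 of the 27022 probe sets tested. The probe set of Acp5, the tartrate-resistant acid phosphatase of osteoclasts and macrophages, was too dim, with signals of 1.77 to 25.3.

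The mice formed 6 groups with 3 arrays each: Ppt1 knockout and wild type at 3, 5 and 8 months of age. Each group comprised 1 male and 2 females, but the 8-month knockout had 2 males and 1 female. The labels give total RNA from "brain, cochlea" without saying which was dissected, and name neither the allele nor the strain. Each group holds arrays of both sexes and so of more than 1 animal. Whether the 2 arrays of the same sex within a group represent different animals is not stated. The p-values therefore reflect sample-to-sample spread that could in part be technical. Of 13 cochlear genes, 7 lay at background on most arrays, among them the hair cell genes Pou4f3, Atoh1 and Slc26a5. The others, among them the hair cell genes Myo7a and Otof, did not. None of the markers of neurons and of oligodendrocytes lay at background on most arrays. Ppt1 itself, at its brightest probe set, read 543 to 629 on the wild-type arrays and 0.879 to 23.4 on the knockout arrays, 5 of 9 of which lay at background, so no exact fold is given (limma adjusted p = 1.27e-16). Another Ppt1 probe set stood at 0.11 ± 0.12 (adjusted p = 0.611), and where the probe sets lie in the knockout allele was not determined.

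Lysosomal hydrolases are made in the endoplasmic reticulum, receive mannose 6-phosphate in the Golgi and are sorted to the acidic lysosome, where each cleaves 1 kind of bond in glycans, lipids or proteins. The membrane around them is lined by heavily glycosylated proteins such as LAMP1 and LAMP2 and holds transporters that export the products. Inherited loss of most single members causes a storage disease, many of which affect the brain. Many lysosomal genes share a short sequence near their start, the CLEAR element, which holds the E-box CACGTG and is bound by the transcription factor TFEB and its relatives.

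Since the genes are often described as a set under common control, the sequences before their starts are shown first. RefSeq windows of 300 bases (250 before and 50 after the start, build GRCm38.p6) were found for 33 of the 36 genes, 38 windows in all. The E-box CACGTG, which reads the same on both strands, stood in 9 of the 38 windows (23.7%) and in 7.15% of all 32851 windows. The longer form TCACGTGA, which contains it, stood in 2 of 38 windows (Gla and Mcoln1) against 0.974% of all. The longest form searched adds a G before and a C after that form. It stood in 0 of 38 windows against 0.326% of all, a share too low for 38 windows to show a difference. The windows are listed for the 4 genes that hold the E-box and rose in the knockout over all ages (Lamp1, Gla, Naglu, Lgmn), for Mcoln1, which holds a pair of them and passed no test, and for Lamp2, whose increase exceeded that of the other 33 genes and whose window has none. Each line gives the 250 bases before the start, 5′ to 3′ on the strand of the gene, with the E-box in capitals.
Lamp1: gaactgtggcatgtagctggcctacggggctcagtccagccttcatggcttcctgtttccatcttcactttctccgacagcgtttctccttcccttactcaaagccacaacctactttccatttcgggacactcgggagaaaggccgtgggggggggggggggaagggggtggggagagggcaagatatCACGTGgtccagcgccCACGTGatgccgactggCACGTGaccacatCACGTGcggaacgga
Gla: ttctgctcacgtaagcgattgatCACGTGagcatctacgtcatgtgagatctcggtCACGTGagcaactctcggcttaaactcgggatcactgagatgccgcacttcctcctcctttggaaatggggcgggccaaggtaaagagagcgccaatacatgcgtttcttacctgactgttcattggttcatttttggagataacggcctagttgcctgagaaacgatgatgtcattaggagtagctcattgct
Naglu: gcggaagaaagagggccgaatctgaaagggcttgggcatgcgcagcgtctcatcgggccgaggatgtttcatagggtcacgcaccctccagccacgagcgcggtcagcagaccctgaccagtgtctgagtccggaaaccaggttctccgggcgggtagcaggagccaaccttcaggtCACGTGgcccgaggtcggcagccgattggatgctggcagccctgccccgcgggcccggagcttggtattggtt
Lgmn: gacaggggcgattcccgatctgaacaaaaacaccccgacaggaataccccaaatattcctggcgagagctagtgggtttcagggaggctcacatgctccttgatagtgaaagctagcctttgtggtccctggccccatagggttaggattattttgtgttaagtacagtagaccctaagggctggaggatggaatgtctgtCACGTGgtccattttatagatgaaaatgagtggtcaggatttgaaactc
Mcoln1: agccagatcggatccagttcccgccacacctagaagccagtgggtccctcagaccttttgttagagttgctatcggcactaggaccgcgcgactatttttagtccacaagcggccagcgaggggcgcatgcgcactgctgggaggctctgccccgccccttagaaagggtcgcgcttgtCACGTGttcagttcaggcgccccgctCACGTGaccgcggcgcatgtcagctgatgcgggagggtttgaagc
Lamp2: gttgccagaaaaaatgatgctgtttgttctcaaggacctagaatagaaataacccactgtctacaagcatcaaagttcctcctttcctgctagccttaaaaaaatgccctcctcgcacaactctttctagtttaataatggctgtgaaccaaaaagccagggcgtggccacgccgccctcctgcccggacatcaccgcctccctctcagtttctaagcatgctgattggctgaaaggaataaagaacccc
The Lamp1 bases lie at chr8:13158911-13159160 (plus strand), those of Gla at chrX:134601006-134601255 (minus), Naglu at chr11:101069844-101070093 (plus), Lgmn at chr12:102439093-102439342 (minus), Mcoln1 at chr8:3500269-3500518 (plus) and Lamp2 at chrX:38456461-38456710 (minus). Lamp1 carries 4 copies, whose first bases lie 61, 45, 28 and 15 bases before the start. Mcoln1 carries copies 71 and 45 bases before the start, Gla 227 and 194 bases before it. Naglu has 1 at 73 bases and Lgmn 1 at 49 bases, in only 1 of its windows. Of the genes with a window, 4 of 15 that rose over all ages held the E-box, 0 of 1 that fell and 5 of 15 that were not called (Arsa, Gaa, Glb1, Mcoln1 and Sgsh). A match is a description of the letters, and binding was not measured here.

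Over all ages, many lysosomal genes were higher in the knockout and hardly any was lower. As the mean of the differences at the 3 ages, 17 of 34 genes rose and 1, Ids, fell (limma, adjusted p under 0.05), against 8.39% of all 12496 genes that rose and 6.43% that fell. The increases were moderate. They ran from 0.23 to 0.96 on the log2 scale, 1.17-fold to 1.94-fold, and none reached a factor of 2. The median log2 change of the 34 genes was 0.23, that of all genes -0.01, and 29 of the 34 lay above 0 against 47.5% of all genes. In 6 genes, namely Gusb, Arsb, Hexa, Asah1, Lamp1 and Lamp2, all 9 knockout arrays lay above all 9 wild-type arrays, an arrangement found in 1.54% of all genes. No member had all 9 knockout arrays below, against 0.544% of all genes. In RNA from whole tissue, more transcript per cell and more cells of a type that is rich in the transcript cannot be told apart.

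**Figure D1:**
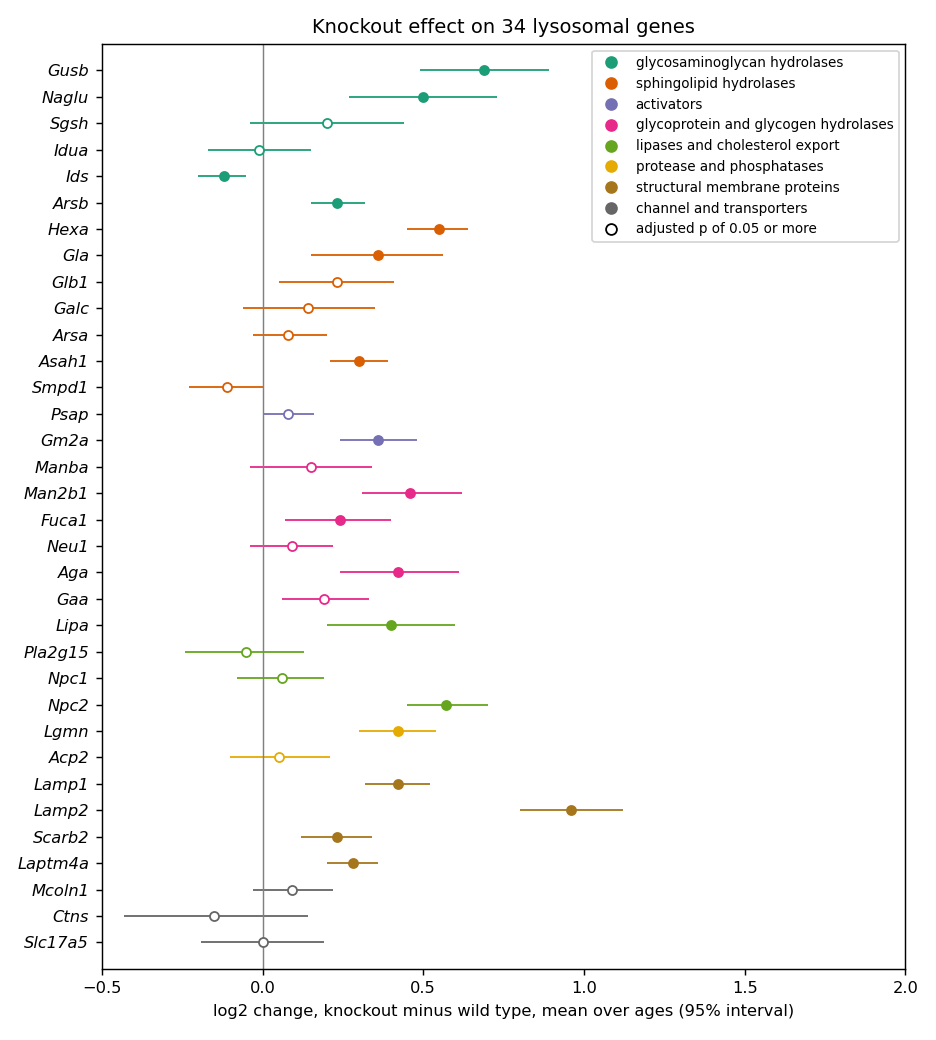
Log2 change of each of the 34 lysosomal genes, knockout against wild type averaged over 3 ages, on the horizontal axis, with genes by class on the vertical axis. Points are the brightest probe set of a gene, bars are 95% intervals of the limma fit, and open points have an adjusted p of 0.05 or more. Lamp2 stands farthest to the right at 0.96, and the 18 filled points hold 1 on the negative side, Ids at -0.12.

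Of the structural membrane proteins, 4 of 4 measured members rose over all ages, few genes to set against the 8.39% of all genes. At 3, 5 and 8 months 1, 3 and 3 of the 4 were called. Lamp2, a major membrane glycoprotein and the receptor of chaperone-mediated autophagy, read 566, 386 and 592 in the wild type at 3 months, 614, 528 and 646 at 5 months and 607, 571 and 487 at 8 months (signal in array units, replicates 1 to 3). In the knockout it read 981, 972 and 830 at 3 months, 1135, 884 and 1157 at 5 months and 1513, 1406 and 1145 at 8 months. The lowest knockout array, at 3 months, was above the highest wild-type array, at 5 months. Lamp2 rose by 0.96 ± 0.08 on the log2 scale over all ages (1.94-fold, adjusted p = 1.7e-08), and its other 3 probe sets rose as well, by 0.59 to 0.85. Lamp1, the other main membrane glycoprotein, read 1860, 1728 and 1709, then 1747, 1642 and 1701, then 1886, 1728 and 1839 in the wild type at 3, 5 and 8 months. Its knockout signals were 1963, 1986 and 2007 at 3 months, 2502, 2424 and 2424 at 5 months and 3003, 2914 and 2256 at 8 months. Again the groups did not overlap, and the 3 knockout arrays at 3 months were the closest to the wild type. The change was 0.42 ± 0.05 (1.34-fold, adjusted p = 1.53e-06). Laptm4a, a small membrane-spanning protein, rose by 0.28 ± 0.04 (adjusted p = 3.69e-05), and Scarb2, the membrane protein LIMP-2 that carries glucocerebrosidase to the lysosome, by 0.23 ± 0.05 (adjusted p = 0.00611).

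Of the channel and the transporters, 0 of 3 were called (limma), too few genes to set against the 8.39% and 6.43% of all genes, and no test compared the classes. Mcoln1, a calcium-permeable channel of the lysosomal membrane, changed by 0.09 (adjusted p = 0.368), and Slc17a5, the sialic acid exporter, by 0. Ctns, the cystine exporter, stood at -0.15 (adjusted p = 0.553). At 3 months its 3 knockout arrays, at 47.1, 60.2 and 49.4, lay below the wild-type arrays, at 72.7, 80.7 and 63.4, and at 5 and 8 months the groups overlapped.

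**Figure D2:**
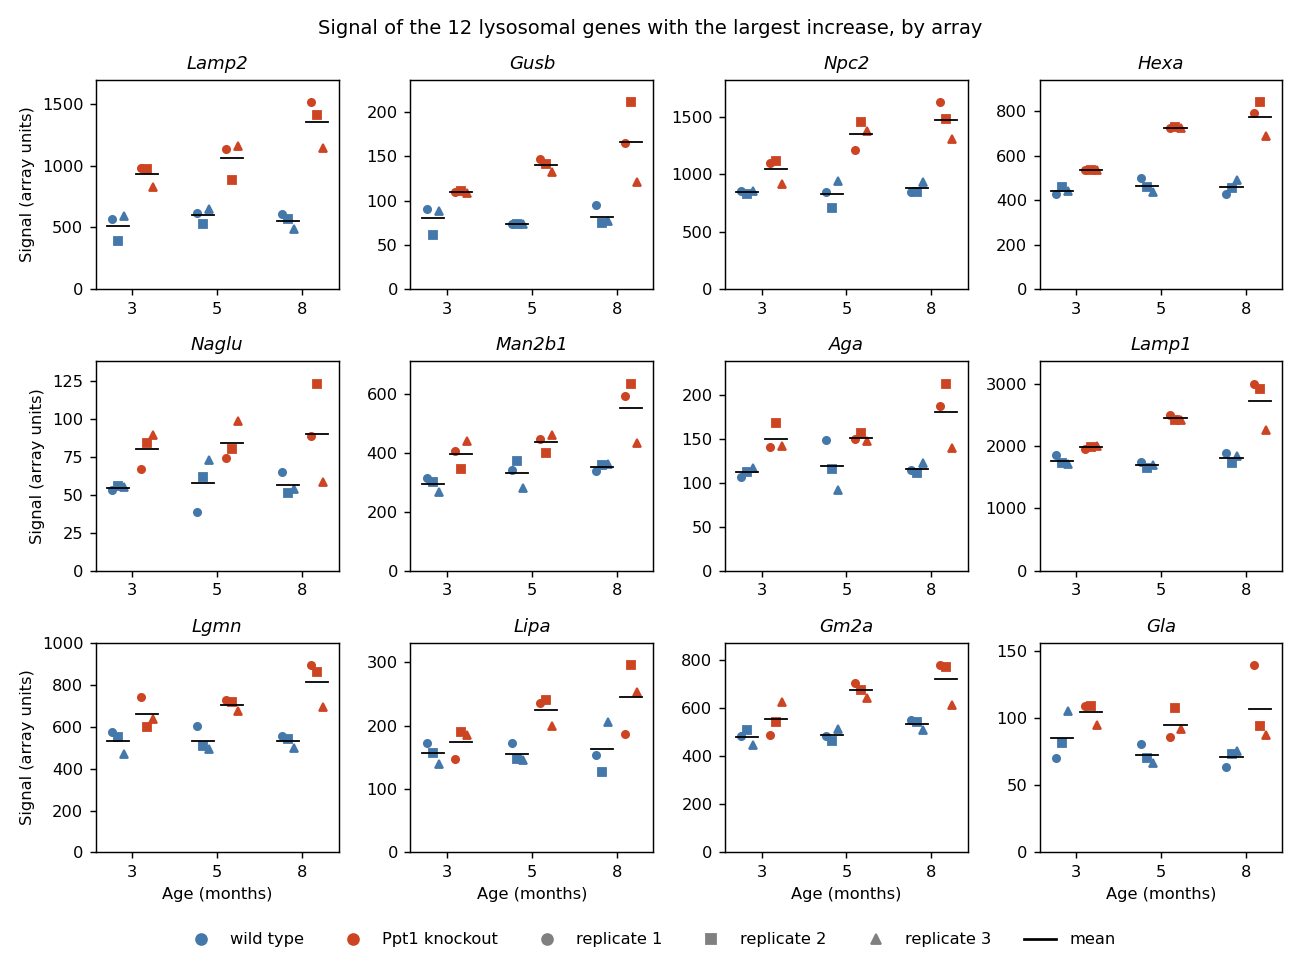
Signal in array units on the vertical axis (each panel from 0) against age in months, for the 12 lysosomal genes with the largest increase over all ages. Symbols are single arrays by replicate, blue for wild type and red for knockout, and black lines are group means. For Lamp2, Gusb, Hexa and Lamp1 every red symbol lies above every blue one, and at 8 months replicate 3 is the lowest red symbol in each of these 4 panels.

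Among the enzymes of glycosaminoglycan breakdown, 3 of 6 rose and 1 fell, few genes to set against 8.39% and 6.43% of all genes. Gusb, beta-glucuronidase, read 89.9, 61.1 and 88.4 in the wild type at 3 months, 73.6, 73.5 and 74 at 5 months and 94.4, 74.2 and 76.5 at 8 months. The knockout read 110, 111 and 109, then 147, 141 and 132, then 165, 211 and 121. All 9 knockout arrays lay above the wild type, and the spread was widest at 8 months. Gusb rose by 0.69 ± 0.1 (1.62-fold, adjusted p = 3.57e-05), while its second tested probe set stood at 0.27 ± 0.09 (adjusted p = 0.0662). Naglu, alpha-N-acetylglucosaminidase of heparan sulfate breakdown, read 52.9, 55.5 and 54.9, then 38.7, 61.7 and 72.8, then 64.9, 51 and 53.6 in the wild type. In the knockout it read 66.8, 84.2 and 89.4, then 73.9, 79.9 and 98.8, then 88.4, 123 and 58.4. The groups were apart at 3 and 5 months, but at 8 months replicate 3 of the knockout lay among the wild-type arrays. Naglu rose by 0.5 ± 0.11 (1.41-fold, adjusted p = 0.00395), and without replicates 1 and 2 of the 8-month knockout its change was 0.36 (adjusted p = 0.0725). Arsb, the sulfatase of dermatan and chondroitin sulfate, rose by 0.23 ± 0.04 (adjusted p = 0.000678) with no overlap between 806 to 992 in the knockout and 723 to 804 in the wild type. Sgsh, heparan N-sulfatase, stood at 0.2 (adjusted p = 0.292) and Idua, alpha-L-iduronidase, at -0.01.

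Ids, iduronate 2-sulfatase, was the member that fell. It read 5157, 5012 and 4983 in the wild type at 3 months, 4977, 4907 and 4854 at 5 months and 5289, 4708 and 5647 at 8 months. In the knockout it read 4286, 4312 and 4769, then 4474, 4513 and 4821, then 4841, 4839 and 4915. The knockout arrays were lower without overlap at 3 and 5 months, and at 8 months a wild-type array at 4708 lay below all 3. The change was -0.12 ± 0.04 (adjusted p = 0.0264). All 4 tested Ids probe sets had a negative change, from -0.3 to -0.12, and 2 of them were called. The call of the brightest one was lost under 12 of 30 alternative settings, 9 of which leave out a single array (adjusted p from 0.00668 to 0.126). These arrays were replicates 1 and 2 of the knockout at 3 and at 5 months, replicate 2 of the knockout at 8 months, replicate 1 of the wild type at each age and replicate 3 of the wild type at 8 months.

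Of the sphingolipid hydrolases, 3 of 7 rose, again few genes to set against the 8.39% of all genes. Hexa, the alpha subunit of beta-hexosaminidase, which splits GM2 ganglioside, read 428, 459 and 442, then 498, 458 and 438, then 430, 456 and 492 in the wild type at 3, 5 and 8 months. The knockout read 537, 537 and 534 at 3 months, 723, 728 and 726 at 5 months and 794, 841 and 690 at 8 months. The knockout replicates were tight at 3 and 5 months and no array overlapped the wild type. Hexa rose by 0.55 ± 0.05 (1.46-fold, adjusted p = 3.64e-08). Gla, alpha-galactosidase A, read 69.8, 81 and 105, then 80.8, 70.4 and 66.1, then 63.8, 73.3 and 75.6 in the wild type. Its knockout signals were 109, 109 and 94.8, then 85.4, 107 and 91.9, then 139, 93.8 and 87.4. Only the wild-type array at 105 reached into the range of the knockout. Gla rose by 0.36 ± 0.1 (1.28-fold, adjusted p = 0.0184), and both of its probe sets were called. Without replicates 1 and 2 of the 8-month knockout the Gla change was 0.3 (adjusted p = 0.0882), and the call was also lost without replicate 1 of the wild type at 3 months. Asah1, acid ceramidase, rose by 0.3 ± 0.04 (adjusted p = 5.93e-05), with knockout signals of 681 to 829 above the wild type at 551 to 662.

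The other 4 sphingolipid enzymes did not pass over all ages. Glb1, beta-galactosidase, stood at 0.23 ± 0.09 (adjusted p = 0.0837), and Arsa, arylsulfatase A, at 0.08. Smpd1, acid sphingomyelinase, stood at -0.11 (adjusted p = 0.204), and its 2 probe sets had opposite signs. Galc, galactosylceramidase, which degrades a main lipid of myelin, stood at 0.14 (adjusted p = 0.404) over all ages and passed at 8 months alone among the ages. Its wild-type signals were 227, 224 and 204, then 262, 204 and 237, then 229, 172 and 198. In the knockout it read 160, 219 and 208 at 3 months, 179, 250 and 251 at 5 months and 333, 406 and 215 at 8 months. The increase at 8 months was carried by replicates 1 and 2, and replicate 3 lay within the wild type. At that age the change was 0.64 ± 0.18 (adjusted p = 0.0205), while the second tested Galc probe set stood at -0.03. The difference between the Galc effects at 8 and at 3 months did not pass (0.8, adjusted p = 0.118).

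The activator proteins bring lipids to these enzymes, and 1 of 2 rose, too few genes to set against the 8.39% of all genes. Gm2a, the GM2 activator that lifts the ganglioside for beta-hexosaminidase, read 484, 509 and 448, then 483, 465 and 513, then 551, 544 and 509 in the wild type. In the knockout it read 490, 543 and 628, then 706, 677 and 642, then 779, 773 and 615. The groups overlapped at 3 months and were apart at 5 and 8 months. Gm2a rose by 0.36 ± 0.06 (1.28-fold, adjusted p = 0.000156), and both of its probe sets were called. Psap, the precursor of the 4 saposins, stood at 0.08 (adjusted p = 0.191).

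Of the 6 enzymes of glycoprotein and glycogen breakdown, 3 rose, few genes to set against the 8.39% of all genes. Man2b1, lysosomal alpha-mannosidase, read 316, 303 and 269, then 343, 372 and 282, then 340, 360 and 361 in the wild type. The knockout read 405, 347 and 439, then 448, 399 and 460, then 593, 635 and 433. At each age the knockout arrays lay above the wild type. The change was 0.46 ± 0.07 (1.38-fold, adjusted p = 0.000181). A second, dimmer Man2b1 probe set went the other way: at 8 months it read 10.5, 46.3 and 65.7 in the knockout and 104, 75.8 and 78.3 in the wild type (-1 ± 0.28, adjusted p = 0.0256), and over all ages it stood at -0.48 (adjusted p = 0.0575). What the 2 probe sets detect was not tested, and the direction for Man2b1 is that of its brightest probe set only.

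Aga, aspartylglucosaminidase, which cuts the sugar from asparagine, read 107, 112 and 117, then 149, 116 and 91.5, then 115, 111 and 123 in the wild type. Its knockout signals were 141, 168 and 142, then 150, 157 and 148, then 188, 213 and 140. A single wild-type array, at 149, reached into the knockout range. Aga rose by 0.42 ± 0.09 (1.34-fold, adjusted p = 0.00277), and without replicates 1 and 2 of the 8-month knockout the change was 0.3 (adjusted p = 0.0501). Fuca1, alpha-L-fucosidase, rose by 0.24 ± 0.08 with an adjusted p of 0.049, close to the threshold. Gaa, the acid alpha-glucosidase that degrades glycogen, had an adjusted p of 0.0506 at 0.19 ± 0.06, while its second probe set, at 0.21, passed. Manba, beta-mannosidase, stood at 0.15 (adjusted p = 0.333) and Neu1, the sialidase, at 0.09.

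Of the lipases and cholesterol exporters, 2 of 4 rose over all ages, few genes to set against the 8.39% of all genes. Npc2, the soluble protein that hands cholesterol to the membrane protein NPC1, read 858, 830 and 854, then 850, 706 and 946, then 850, 848 and 937 in the wild type. The knockout read 1096, 1117 and 921 at 3 months, 1218, 1454 and 1382 at 5 months and 1631, 1486 and 1313 at 8 months. Within each age the groups were apart. Npc2 rose by 0.57 ± 0.06 (1.49-fold, adjusted p = 5.11e-07), and its 3 tested probe sets were all called, from 0.57 to 0.77. Npc1, its partner in the membrane, stood at 0.06. Lipa, lysosomal acid lipase, read 172, 157 and 139, then 173, 147 and 146, then 154, 127 and 206 in the wild type. Its knockout signals were 147, 190 and 185, then 236, 241 and 199, then 187, 295 and 253. The groups overlapped at 3 and 8 months and were apart at 5 months. Lipa rose by 0.4 ± 0.09 (1.32-fold, adjusted p = 0.00689), the call resting on 1 of its 3 tested probe sets.

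Lgmn, the asparagine-specific protease legumain, read 577, 551 and 470, then 603, 508 and 493, then 556, 543 and 499 in the wild type. In the knockout it read 743, 600 and 639, then 727, 719 and 675, then 895, 864 and 694. At each age all knockout arrays were above the wild type. Lgmn rose by 0.42 ± 0.06 (1.34-fold, adjusted p = 2.53e-05). Acp2, a lysosomal acid phosphatase, stood at 0.05, and its 3 tested probe sets differed in sign.

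At 3, 5 and 8 months 1, 9 and 17 of the 34 genes were called. The count at 8 months ran from 7 to 21 with single arrays left out, was 8 in a fit of only the groups compared, and was 3 without replicates 1 and 2 of the 8-month knockout, which gave 3 at 3 months as well. At 3 months 1 of 34 rose, Lamp2 by 0.85 ± 0.14 (limma adjusted p = 0.00113), against 0.912% of all genes, and 0 fell against 0.336%. From its second probe set Lamp2 stood at 0.31 at 3 months (adjusted p = 0.414). On the 3-month knockout arrays its remaining tested probe sets read 314 to 335 and 439 to 480. The wild-type arrays of that age read 207 to 242 and 283 to 308 there. At an unadjusted p under 0.05, 17 of the 34 passed at 3 months, against 11.6% of all genes. At 5 months 9 rose (2.31% of all genes) and 0 fell (0.656%). Beside Lamp2 (0.81 ± 0.14, adjusted p = 0.00104), Gusb (0.8 ± 0.17, adjusted p = 0.00847), Npc2 (0.69 ± 0.1, adjusted p = 0.000245) and Hexa (0.63 ± 0.08, adjusted p = 4.83e-05), these were Lamp1, Gm2a, Lgmn, Asah1 and Laptm4a. At 8 months 16 rose (6.97% of all genes) and 1 fell (5.95%). Lamp2 changed by 1.22 ± 0.14 (2.33-fold, adjusted p = 4.55e-06), Gusb by 0.86 ± 0.17 (adjusted p = 0.00202), and Hexa and Npc2 by 0.74 each (adjusted p = 3.59e-06 and 7.1e-05). The Gusb call at 5 months was lost without replicate 1 of that knockout group, and its call at 8 months without replicate 2 of the 8-month knockout. Both calls were also lost from the second Gusb probe set, which stood at 0.15 at 8 months (adjusted p = 0.611). The count at 5 months was 5 without replicate 1 of the 5-month knockout or replicate 2 of the 5-month wild type, and 12 without replicate 3 of the 8-month knockout. The count at 3 months was 3 without replicate 3 of the 8-month knockout.

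**Figure D3:**
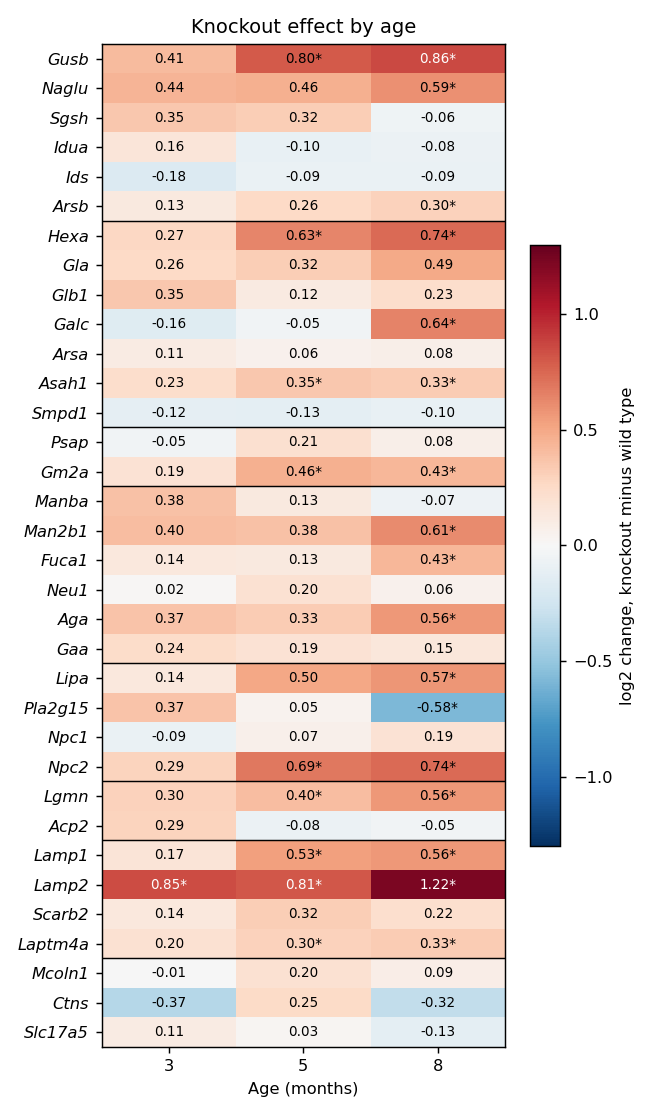
Log2 change of the 34 lysosomal genes, knockout minus wild type, at 3, 5 and 8 months, as a colour scale with the value printed and an asterisk for an adjusted p under 0.05. Lines separate the classes. The asterisks number 1, 9 and 17 at 3, 5 and 8 months, and the blue cell with an asterisk is Pla2g15 at 8 months, -0.58.

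The medians moved less than the counts. At 3, 5 and 8 months the 34 genes had a median log2 change of 0.2, 0.26 and 0.27, against 0, 0.01 and -0.02 for all genes. At 3 months 27 of the 34 lay above 0 (50.4% of all genes), at 5 months 29 (51.5%) and at 8 months 25 (46.8%). Knockout arrays lay above all wild-type arrays of the same age in 16 members at 3 months (10.6% of all genes), in 18 at 5 months (12.7%) and in 14 at 8 months (12.8%). They lay below in 2 members at 3 months, Ids and Ctns (10.2%), in 1 at 5 months, Ids (9.76%), and in 1 at 8 months, Pla2g15 (14.4%). Among the 17 genes that rose over all ages, the estimate at 8 months exceeded the other 2 in 14, and the estimate at 3 months was the smallest in 13. All 17 were above 0 at each age, with ranges of 0.13 to 0.85, 0.13 to 0.81 and 0.22 to 1.22. These estimates share the arrays that chose the 17 genes and are a description.

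Tests of the change in effect with age called few members. The effect at 8 months differed from that at 3 months in 2 of 34 genes (1.18% of all genes), and 5 of 34 passed at an unadjusted p under 0.05 (14.6%). Hexa had the larger effect at 8 months, by 0.48 ± 0.12 (95% interval 0.24 to 0.72, adjusted p = 0.047). Pla2g15, a phospholipase A2 of the lysosome that degrades phospholipids of surfactant and of membranes, went from higher to lower. It read 104, 80.7 and 113 in the wild type and 134, 108 and 156 in the knockout at 3 months, 123, 125 and 110 against 135, 120 and 118 at 5 months, and 143, 171 and 141 against 81.3, 97.2 and 115 at 8 months. The groups overlapped at the first 2 ages, and at 8 months all 3 knockout arrays lay below the wild type. The change was 0.37 ± 0.15 at 3 months (adjusted p = 0.408) and -0.58 ± 0.16 at 8 months (adjusted p = 0.0186), a difference of -0.94 ± 0.22 (95% interval -1.4 to -0.49, adjusted p = 0.0384). The 8-month call of Pla2g15 was lost without replicate 1 or 2 of the knockout or replicate 2 of the wild type at that age, without both knockout replicates 1 and 2, in a fit of only the groups compared, and from the second probe set (adjusted p up to 0.448). The call of the difference held in 15 of 30 settings for Pla2g15 (adjusted p from 0.00531 to 0.346) and in 9 of 29 for Hexa (0.00317 to 0.398). Without replicate 3 of the 8-month knockout the count of such members was 7, and it was 0 without replicate 1 or 2 of that group. It was also 0 without replicate 1 or 3 of the 3-month knockout, replicate 2 of the 5-month knockout, replicate 1 or 2 of the 3-month wild type, or any array of the 8-month wild type. It was 1 without replicate 2 of the 3-month knockout, replicate 3 of the 5-month knockout, replicate 3 of the 3-month wild type, or replicate 1 or 2 of the 5-month wild type. Between 5 and 3 months, and between 8 and 5 months, 0 of 34 genes passed (limma, 0% of all genes in both), and 5 and 3 passed at an unadjusted p under 0.05 (5.92% and 12% of all genes).

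Within the knockout, 7 of 34 genes were higher at 8 than at 3 months (3.67% of all genes) and 0 lower (2.12%), with 14 passing at an unadjusted p under 0.05 (21% of all genes). Galc changed by 0.67 ± 0.18 (adjusted p = 0.0287), Hexa by 0.53 ± 0.08 (adjusted p = 0.00082), Npc2 by 0.5 ± 0.1 (adjusted p = 0.00718), Lamp2 by 0.49 ± 0.14 (adjusted p = 0.0389) and Man2b1 by 0.46 ± 0.13 (adjusted p = 0.0421). The other 2 were Lamp1 and Gm2a. From their second probe sets Galc stood at -0.17 and Man2b1 at -0.73. The call held in 22 of 30 settings for Galc, 21 of 30 for Lamp2 and 16 of 30 for Man2b1. It held in 28 of 29 for Hexa and in 28 of 30 for Npc2. The count of 7 became 1 without replicate 2 of the 8-month knockout, 3 without replicate 1 and 13 without replicate 3. It was 3, 3 and 4 without replicates 1, 2 and 3 of the 3-month knockout. In the wild type 0 of 34 genes differed between 8 and 3 months (limma, 0.024% of all genes), with 2 at an unadjusted p under 0.05 (7.61%).

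The 3 knockout arrays at 8 months stood apart from one another, and the lysosomal genes followed that split. Replicates 1 and 3 were male and replicate 2 was female, and the part of sex in the split was not tested. Each correlated with its group mates at a mean r of 0.9614 to 0.9694, against 0.9791 to 0.9827 in the other 5 groups. Replicate 3 was the lowest of the 3 in 26 of 34 lysosomal genes, against 37.1% of all genes. It was the lowest in 15 of the 16 that rose at 8 months, Lipa being the exception. These 16 were chosen on the same arrays. The matching share among all genes that rose at 8 months was not computed, so whether the split is particular to lysosomal genes was not tested. As the mean difference from the wild-type mean over the 34 genes, replicates 1, 2 and 3 stood at 0.32, 0.46 and 0.17 on the log2 scale. The knockout arrays stood at 0.13, 0.16 and 0.18 at 3 months and at 0.23, 0.28 and 0.23 at 5 months, so replicate 3 at 8 months was within the range of the 3-month arrays. The wild-type arrays lay between -0.07 and 0.07. With replicates 1 and 2 left out, a choice made after seeing the data, 3 of 34 genes were called at 8 months, where Lamp2 (0.92, adjusted p = 0.00742), Hexa (0.58, adjusted p = 0.00434) and Npc2 (0.58, adjusted p = 0.0315) still passed. That fit takes the spread of the lone remaining array from the other groups. Without replicate 2 alone 7 were called at 8 months, without replicate 2 of the 8-month wild type 10, and without knockout replicate 3 the count was 21.

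Most markers of microglia and of astrocytes were higher in the knockout. Of 16 markers of microglia and macrophages, 12 rose and 1 fell over all ages (median 1.18), against 8.39% and 6.43% of all genes. Aif1, a calcium-binding protein of microglia, rose by 1.1 ± 0.11 (adjusted p = 4.01e-07), Csf1r, their growth factor receptor, stood at 0.09 ± 0.05 (adjusted p = 0.271) and Cx3cr1, the fractalkine receptor, at 0.05. P2ry12, a receptor of resting microglia, was the marker that fell, with a log2 change of -0.55 ± 0.09 (adjusted p = 0.000275). None of the 16 lay at background on most arrays. The summed signal of the 16 was 3304 to 4487 on the wild-type arrays, and 5625 to 6007, 7267 to 7743 and 6816 to 12505 on the knockout arrays at 3, 5 and 8 months. The array means followed the order of the lysosomal genes at 8 months: 1.32, 1.62 and 0.82 for replicates 1, 2 and 3. Of 11 astrocyte markers 9 rose (median 0.28), with sums of 20044 to 21542 in the wild type and 22464 to 22978, 28583 to 29434 and 30105 to 37667 in the knockout. Gfap, the filament of astrocytes, rose by 2.32 ± 0.06 (adjusted p = 1.37e-16). The astrocyte array means at 8 months were 1.1, 1.07 and 0.69 for knockout replicates 1, 2 and 3. The part of these cells in the lysosomal result was not tested.

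**Figure D4:**
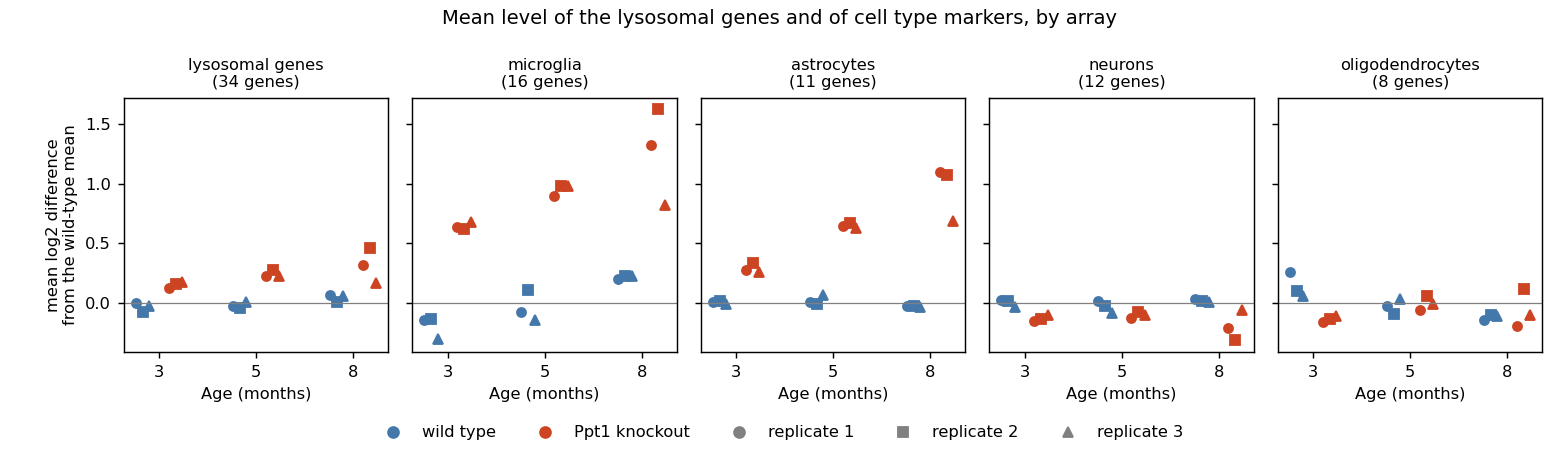
Mean log2 difference from the wild-type mean on the vertical axis against age in months, for the 34 lysosomal genes and for markers of cell types. Each symbol is 1 array by replicate, blue for wild type and red for knockout. In the first panel the knockout arrays lie between 0.13 and 0.46 and the wild-type arrays between -0.07 and 0.07. At 8 months replicate 3 is the lowest knockout array there and in the microglia and astrocyte panels.

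Lists for the other cell types gave the following counts, beside 8.39% of all genes that rose and 6.43% that fell over all ages. A single call in so short a list is not read as a result. Of 12 neuronal markers 4 fell and 0 rose (median -0.11), and their array means at 8 months were -0.21, -0.31 and -0.06 in knockout replicates 1, 2 and 3. Of 8 oligodendrocyte markers 1 fell (median 0.02), of 7 markers of meninges and fibroblasts 5 rose (median 0.51), of 8 endothelial markers 1 rose and of 7 choroid plexus and ependymal markers 1 rose. Of 5 cochlear genes tested 1 rose, Gjb2, a gap junction gene, and of 3 blood genes none was called. The ratio of 5′ to 3′ signal for actin, a measure of RNA integrity, was 0.432 to 0.482 in the knockout and 0.501 to 0.525 in the wild type at 8 months. It overlapped between genotypes at 3 months (0.507 to 0.542 against 0.48 to 0.547) and at 5 months (0.389 to 0.473 against 0.412 to 0.499). The same ratio for Gapdh was 1.22 to 1.25 in the knockout and 1.26 to 1.35 in the wild type at 8 months. The part of either in the 8-month values was not tested.

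Other lysosomal genes, which were not members, give the setting, beside 8.39% of all genes that rose and 6.43% that fell over all ages. Of 14 tested cathepsins and other lysosomal proteases, 11 rose and 0 fell (median 0.5), led by Ctss at 1.24 ± 0.07 and including Ctsd at 1.04 ± 0.06 and Ctsz at 1.03 ± 0.08. Further glycan and lipid hydrolases moved little: 2 of 9 rose (median 0.07), Smpdl3a by 0.32 ± 0.06 and Plbd2 by 0.44 ± 0.09. Of 21 other membrane proteins and transporters 7 rose (median 0.1), among them Cd68 at 1.78 ± 0.12, Laptm5 at 0.93 ± 0.07 and Slc11a1 at 1.02 ± 0.12. Cd68 and Laptm5 also stand in the list of microglial markers, and Slc11a1 is a metal transporter of phagocytes. The vacuolar ATPase, which acidifies the lysosome, had 2 of 17 subunits higher and 2 lower (median -0.03), counts not read as a result beside those shares. They were Atp6v0e at 0.24 ± 0.06 and Atp6v1g1 at 0.17 ± 0.04 against Atp6v1d at -0.15 ± 0.03 and Atp6v0e2 at -0.14 ± 0.03.

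Genes that sort or modify the enzymes had 3 of 17 higher (median 0.05), against 8.39% of all genes. They included Grn, which encodes progranulin, at 0.86 ± 0.06 and M6pr, a mannose 6-phosphate receptor, at 0.2 ± 0.05. Cln8, which helps enzymes leave the endoplasmic reticulum, rose by 0.28 ± 0.09. Of 12 genes for the MiT transcription factors, the family of TFEB, and their regulators, 5 rose (median 0.1), among them Fnip2 at 0.36 ± 0.06 and the Rag GTPases Rraga and Rragd at 0.2 each. The factors themselves, picked after their values were seen, were not among the 5. Tfeb stood at 0.12 ± 0.09 (adjusted p = 0.463), Tfe3 at 0.02 ± 0.09 (adjusted p = 0.912) and Mitf at 0.08 ± 0.06 (adjusted p = 0.481). A transcript level does not measure the activity of these proteins.

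Most genes with more than 1 tested probe set gave the same direction from each. Of 19 such genes, 12 had one sign in all their probe sets and 7 had both. Over probe sets, 26 of 63 rose and 2 fell over all ages, against 6.62% and 6.02% of all 27022 tested. Lamp2 with 4 of 4 and Npc2 with 3 of 3 had every tested probe set higher, and Gla, Gm2a and Scarb2 had 2 of 2. Of the 7 with both signs, Man2b1 spread the widest, from -0.48 to 0.46, and Smpd1 ran from -0.11 to 0.24. Arsb, which rose at its brightest probe set, had 1 of 3 called and a range of -0.05 to 0.23.

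**Figure D5:**
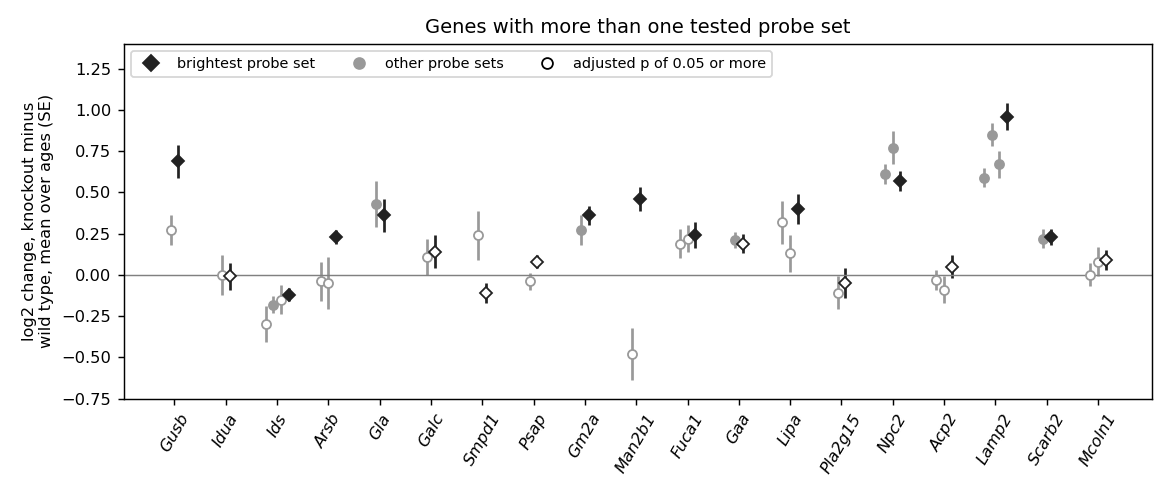
Log2 change with its standard error, knockout against wild type averaged over 3 ages, on the vertical axis for each tested probe set of the 19 lysosomal genes with more than 1. Dark diamonds are the brightest probe set of a gene and grey circles the others. The 4 Lamp2 points lie between 0.59 and 0.96, and those of Man2b1 lie on both sides of 0.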

How the data were processed

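RNA of 18 samples was hybridised to 1 Affymetrix mouse array each. The deposited values are linear probe set intensities, with the software and scaling behind them not given in the sources used here. The trimmed mean (2% off each end) was 150 on every array and the medians lay between 43.2 and 46.1, so values were used as deposited. The number of arrays limits the precision.

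Values were analysed as log2(signal + 16), so changes of dim genes appear smaller than they are. Controls (64 probe sets) and the dimmest 40% were not tested. One limma 3.58.1 model (R 4.3.3, eBayes with a variance trend) covered the 18 arrays, with 6 group means plus an additive sex effect. P-values were two-sided and adjusted by Benjamini-Hochberg over 27022 probe sets, with a threshold of 0.05. A gene was read from its brightest tested probe set with 1 symbol (12496 genes). Of 34958 such probe sets, 34754 matched RefSeq (GRCm38.p6) by Entrez identifier. Background was the 95th percentile of 27 bacterial control probe sets per array. Errors on log2 changes are standard errors.

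Full values are given for the 12 members with the largest increase, those that fell, and up to 4 per age or 5 per comparison of ages. Members and lists were chosen with earlier results of these data known. Replicates were numbered in record order and are not paired. The fit was tested on simulated data. Alternatives covered scaling, pseudocount, filter, sex term, variance model, array weights, probe set, samples fitted and each array left out.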

Additional observations from a re-analysis of the deposited data

Results flagged for a closer look

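In 2 of 34 lysosomal genes the knockout effect differed between ages by limma's test of the difference itself (1.18% of all genes). At an unadjusted p under 0.05, 5 of 34 passed, against 14.6% of all genes. The effect on Pla2g15, a lysosomal phospholipase, was lower at 8 than at 3 months by -0.94 ± 0.22 on the log2 scale (adjusted p = 0.0384). The effect on Hexa, a subunit of beta-hexosaminidase, was larger at 8 than at 3 months by 0.48 ± 0.12 (adjusted p = 0.047). Neither passed with replicate 1 or replicate 2 of the 8-month knockout left out. The same held for each array of the 8-month wild type. The call held in 15 of 30 settings for Pla2g15 and in 9 of 29 for Hexa.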

How the results depend on the processing

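No paired analysis was possible because the replicate numbers follow record order and pair no samples. Counts under other settings cover the members only, and the shares of all genes called in those settings were not computed. With quantile normalization 17 members rose and 1 fell over all ages, and with median centring 16 and 1, so the class direction held under these scalings. For the change in effect from 3 to 8 months (2 members), the count was 1 with median centring, a pseudocount of 1 or a robust variance model, 0 without the filter, without the variance trend or from second probe sets, and 4 with array weights. Without a variance trend 5 members were called at 5 months and 3 within the knockout. With array weights 4 were called at 3 months and 12 within the knockout. From the second probe set of the 19 genes that have one, 7 were called over all ages, 0, 2 and 4 at 3, 5 and 8 months, and 2 within the knockout. A fit of only the groups compared called 8 at 8 months. Without replicates 1 and 2 of the 8-month knockout, a choice added after seeing the data, the counts were 3 at 3 months, 3 at 8 months, 0 for the change in effect and 0 within the knockout. Leaving out each array in turn gave 16 to 20 over all ages, 1 to 3, 5 to 12 and 7 to 21 at 3, 5 and 8 months, 0 to 7 for the change in effect from 3 to 8 months, 0 to 2 from 5 to 8 months, and 1 to 13 within the knockout. Of 900 values for single genes, 800 kept direction and side of the threshold, 97 lost the call and 3 reversed, all from second probe sets: Man2b1 to -0.48 over all ages, and Galc to -0.17 and Man2b1 to -0.73 within the knockout from 3 to 8 months. The cause was not tested.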
